A study of Mus musculus with 4 samples.

Results

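ATF4 is the transcription factor at the centre of the integrated stress response, and 10 genes of that response were examined here: Atf4 itself, its relative Atf5, and the targets Asns, Trib3, Ddit3, Ddit4, Chac1, Sesn2, Cth and Stc2. The genes were chosen by name, with earlier results of these data known, and each was read from 1 row of the deposited table of 34745 genes. All 10 were among the 13279 genes that passed the filter on low counts. The study sequenced RNA from naive CD4+ T cells of C57BL/6 mouse spleen cultured for 3 days in conditions that polarise them towards regulatory T (Treg) cells. The 2 libraries titled 13wt-treg and 15wt-treg (13wt and 15wt) came from wild-type mice. The 2 titled 22ko-treg and 24ko-treg (22ko and 24ko, together the knockout-labelled group) came from mice whose genotype is given as Setd2-CD4 cre. Setd2 encodes the enzyme that trimethylates lysine 36 of histone H3, and Cre driven by CD4 acts from the double-positive thymocyte stage, so it also acts in T cells that later become CD8+. Setd2 RNA itself, over the whole gene, was at 137 and 146 CPM (counts scaled to library size) in wild type and at 137 and 113 CPM in 22ko and 24ko (adjusted p = 0.436 in edgeR's quasi-likelihood test). The deleted exons are not named in the labels, so this does not check the genotype, and the groups are called by their label. Neither the age of the mice nor whether each library came from its own animal is stated in the labels, so p-values reflect the spread between libraries, which may be technical.

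In the integrated stress response, kinases that sense amino acid shortage, endoplasmic reticulum stress, haem shortage or double-stranded RNA phosphorylate the initiation factor eIF2. General translation then slows while translation of the Atf4 and Atf5 messages increases, so the level of these RNAs need not follow the level of the proteins, which were not measured. ATF4 pairs with C/EBP and other basic leucine zipper proteins at C/EBP-ATF response elements and raises genes for amino acid synthesis, uptake and charging. In T cells this programme accompanies the rise in biosynthesis after activation.

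The promoters of Asns, Trib3 and Chac1 are shown because these genes had the 3 matches among the members to the core letters of a C/EBP-ATF element, TGATGNAA, searched on both strands from 250 bases before to 50 bases after each RefSeq start (GRCm38.p6). The capitals mark the match, which reads TTNCATCA on the opposite strand. Asns is at chr6:7693210-7693459 (minus strand), where the match begins 23 bases before the RefSeq start but inside the gene as it stands in the deposited table. Trib3 is at chr2:152344033-152344310 (minus strand), where it begins 15 bases after the RefSeq start and upstream of the start of the gene in the deposited table. Chac1 is at chr2:119350992-119351241 (plus strand), where it begins 193 bases before the RefSeq start and upstream of the deposited one.
Asns: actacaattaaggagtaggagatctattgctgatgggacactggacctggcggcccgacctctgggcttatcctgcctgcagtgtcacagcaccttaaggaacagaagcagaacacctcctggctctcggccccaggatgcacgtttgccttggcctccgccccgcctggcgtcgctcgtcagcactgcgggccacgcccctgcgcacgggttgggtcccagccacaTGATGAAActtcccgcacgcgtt
Trib3: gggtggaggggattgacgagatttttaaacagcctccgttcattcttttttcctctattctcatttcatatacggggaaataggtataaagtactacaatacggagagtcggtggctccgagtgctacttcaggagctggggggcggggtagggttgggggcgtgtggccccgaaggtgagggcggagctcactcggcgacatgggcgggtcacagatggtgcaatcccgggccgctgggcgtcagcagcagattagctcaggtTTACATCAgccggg
Chac1: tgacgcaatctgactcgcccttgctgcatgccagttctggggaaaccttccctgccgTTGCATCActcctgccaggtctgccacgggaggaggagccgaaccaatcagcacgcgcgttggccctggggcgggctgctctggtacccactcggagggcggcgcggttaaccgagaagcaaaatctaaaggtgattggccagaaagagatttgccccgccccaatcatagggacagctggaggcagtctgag
Of the 10 members, 9 had a RefSeq window (Atf5 had 2), and 3 of these 9 genes held a match. By gene, the same letters stood in the windows of 4.51% of all 27025 genes with a window and of 2.76% of those tested. A match is a string of letters and not a measured binding site.

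In all, 5 members fell in the knockout-labelled libraries and none rose: Asns, Trib3, Atf5, Cth and Stc2 had a log2 fold change (log2FC, knockout-labelled minus wild type) of -2.34 to -1.52. Atf4 RNA was not lower (log2FC 0.48), and Ddit3, Ddit4 and Sesn2 differed by 0.34 or less in size. Chac1 had a log2FC of -1.23 without being called (adjusted p = 0.0629). So 5 of 10 members were lower at an adjusted p below 0.05 in edgeR's quasi-likelihood test, where 4.59% of all tested genes were called lower, 5.53% higher and 10.1% in either direction. The median log2FC of the members was -1.38, and that of all tested genes -0.00133. The libraries did not overlap between the groups for 9 members, 7 lower and 2 higher. The groups did not overlap for 63.8% of all tested genes, 32.7% lower and 31.1% higher. In RNA from whole cultures, fewer cells of a type that makes a transcript and less of it per cell cannot be told apart.

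**Figure D1:**
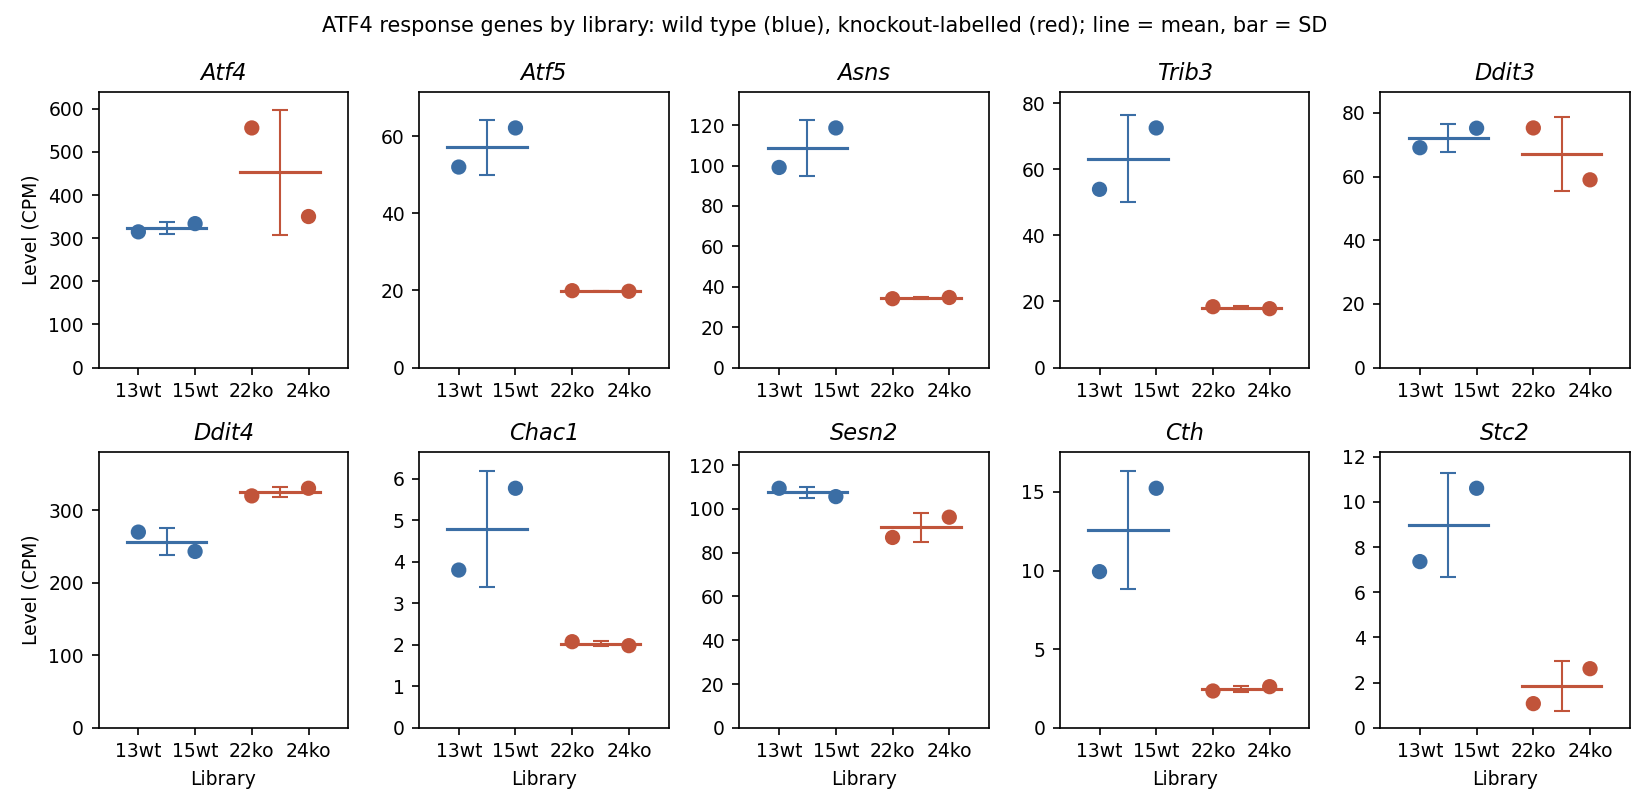
Levels of the 10 genes in CPM (vertical axis from 0) in each library (horizontal axis), with group means as lines and SD as bars (n = 2 each). For Asns, Trib3, Atf5, Chac1, Cth, Stc2 and, by less, Sesn2 both red points lie below both blue points. For Atf4 22ko lies far above the other 3 libraries.

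Atf4 (ENSMUSG00000042406, chromosome 15, 80255184 to 80257540, plus strand of GRCm38) measured 315 CPM in 13wt, 334 CPM in 15wt, 556 CPM in 22ko and 350 CPM in 24ko. Both knockout-labelled libraries were above both wild-type libraries, but 24ko by little. The group means were 324 ± 13.5 and 453 ± 145 CPM (SD, n = 2 each), a log2FC of 0.48 (SE 0.21, 95% interval -0.03 to 0.99, adjusted p = 0.175). The size of this difference rested on 1 library: without 22ko the log2FC was 0.12, and without 24ko it was 0.77. The fit without 24ko was the only alternative in which a member was called higher, and it called more genes over all genes too.

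Atf5 (ENSMUSG00000038539, chromosome 7, 44812256 to 44816599, minus strand), a basic leucine zipper factor whose message is under the same translational control, went the other way. Its levels were 52.0 CPM in 13wt, 62.2 CPM in 15wt, 19.9 CPM in 22ko and 19.8 CPM in 24ko. The knockout-labelled pair was nearly identical and the groups were far apart, with a log2FC of -1.52 (SE 0.15, adjusted p = 0.0103). Exons of Atf5 share 82 bases with exons of Il4i1 and of a gene model named Nup62 on the opposite strand. Whether counting used strand is not given in the sources used here, and reads in the shared bases cannot be told apart. Il4i1, which encodes an amino acid oxidase, had a log2FC of -0.43 (adjusted p = 0.0663).

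Among the enzymes, Asns (asparagine synthetase, ENSMUSG00000029752, chromosome 6, 7675169 to 7693254, minus strand) makes asparagine from aspartate and glutamine. It measured 99.0 CPM in 13wt, 119 CPM in 15wt, 34.1 CPM in 22ko and 34.7 CPM in 24ko. The lowest wild-type library was well above the highest knockout-labelled one, and the log2FC was -1.66 (SE 0.15, adjusted p = 0.00947). Its absolute log2FC was exceeded by 3.47% of all tested genes.

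Cth (cystathionine gamma-lyase, ENSMUSG00000028179, chromosome 3, 157894248 to 157925077, minus strand), which makes cysteine in the last step of transsulfuration, had 162 and 227 counts in 13wt and 15wt against 35 and 41 counts in 22ko and 24ko, which is 9.93, 15.2, 2.34 and 2.62 CPM. The fall was 2.34 on the log2 scale (SE 0.29, adjusted p = 0.0135), from 12.6 ± 3.75 to 2.48 ± 0.194 CPM (SD, n = 2 each). A larger absolute log2FC was found for 1.28% of all tested genes. On log2(FPKM + 1), which understates the change of low genes, the difference was -1.43 (limma, adjusted p = 0.0278).

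Chac1 (ENSMUSG00000027313, chromosome 2, 119351229 to 119354381, plus strand) encodes an enzyme that breaks down glutathione. It had 62 and 86 counts in wild type and 31 counts in each knockout-labelled library, or 3.80, 5.77, 2.07 and 1.98 CPM. The groups did not overlap, yet the log2FC of -1.23 (SE 0.34, 95% interval -2.04 to -0.43) did not pass the threshold (adjusted p = 0.0629). With no filter on low counts it did (adjusted p = 0.0257), and without 15wt the adjusted p was 0.443.

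Trib3 (ENSMUSG00000032715, chromosome 2, 152337422 to 152344032, minus strand) encodes a pseudokinase that ATF4 and CHOP raise and that in turn holds back ATF4. Its levels were 53.9 CPM in 13wt, 72.5 CPM in 15wt, 18.4 CPM in 22ko and 17.8 CPM in 24ko. The knockout-labelled pair again lay close together, far below the wild-type pair, and the log2FC was -1.80 (SE 0.18, adjusted p = 0.0103).

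Ddit3 (ENSMUSG00000025408, chromosome 10, 127290774 to 127296288, plus strand) encodes CHOP, the factor associated with death under prolonged stress. It stood at 69.1 and 75.2 CPM in 13wt and 15wt and at 75.3 and 59.0 CPM in 22ko and 24ko. This was the member whose groups overlapped, with a log2FC of -0.10 (SE 0.16, 95% interval -0.49 to 0.28, adjusted p = 0.688). Without 24ko the sign turned (log2FC 0.058). Exons of Ddit3 share 68 bases with exons of Mars on the opposite strand and 105 bases with a second gene model of the same name.

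Ddit4 and Sesn2 encode brakes on the growth kinase mTORC1. Ddit4 (REDD1; ENSMUSG00000020108, chromosome 10, 59949675 to 59951770, minus strand) stood at 270 and 243 CPM in 13wt and 15wt and at 320 and 330 CPM in 22ko and 24ko. The knockout-labelled levels were both above the wild-type levels, with a log2FC of 0.34 (SE 0.12, 95% interval 0.06 to 0.62, adjusted p = 0.102). Sesn2 (the leucine sensor Sestrin2; ENSMUSG00000028893, chromosome 4, 132492032 to 132510501, minus strand) stood at 109 and 106 CPM in wild type and at 86.9 and 96.2 CPM in 22ko and 24ko, a log2FC of -0.23 (SE 0.13, 95% interval -0.54 to 0.08, adjusted p = 0.265). Neither passed the threshold, and both intervals lie above those of Asns (-2.01 to -1.31) and Trib3 (-2.23 to -1.38).

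Stc2 (ENSMUSG00000020303, chromosome 11, 31357307 to 31370074, minus strand) encodes stanniocalcin-2, a secreted glycoprotein. It had 120 and 158 counts in 13wt and 15wt and 16 and 41 counts in 22ko and 24ko, or 7.35, 10.6, 1.07 and 2.62 CPM. The log2FC was -2.27 (SE 0.43, adjusted p = 0.0291). Its call was lost against a minimum fold of 1.5 (glmTreat, adjusted p = 0.0993). It was also lost without 15wt, where fewer genes were called over all genes. The log2FC was -1.99 without 15wt, -1.76 without 22ko and -3.06 without 24ko. On log2(FPKM + 1) the difference was -0.72 (limma, adjusted p = 0.0412). The SE ranges of Stc2 and Cth overlap, and their order changed without 24ko.

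**Figure D2:**
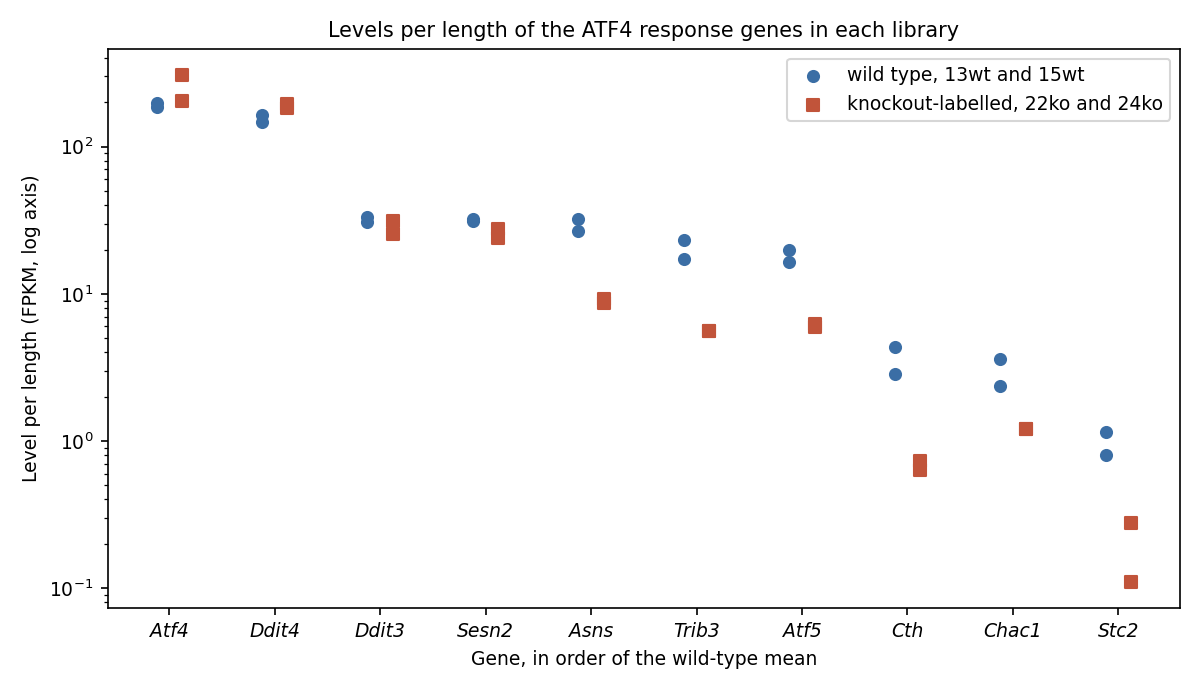
Levels per length of the 10 genes in FPKM (log axis), in the order of the wild-type mean, with 1 point per library. Atf4 and Ddit4 stand far above the others in both groups. Asns overlaps Ddit3 and Sesn2 in wild type and lies below them in the knockout-labelled libraries. Trib3 and Atf5 lie below Ddit3 and Sesn2 in both groups.

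Levels of different genes were compared per length, on the authors' FPKM scale. In wild type, Atf4 (192 ± 8.40 FPKM) and Ddit4 (155 ± 11.1 FPKM) were the most abundant members, followed by Ddit3 (32.0 ± 1.99), Sesn2 (31.5 ± 0.720) and Asns (29.6 ± 3.83 FPKM), whose libraries overlapped each other (SD, n = 2 each). Trib3 (20.3 ± 4.27) and Atf5 (18.2 ± 2.33 FPKM) came next and also overlapped, then Cth (3.60 ± 1.08) and Chac1 (2.98 ± 0.874 FPKM), which overlapped too, and Stc2, the lowest per length (0.974 ± 0.251 FPKM). In the knockout-labelled libraries Ddit3 (28.5 ± 4.03) and Sesn2 (25.8 ± 2.64 FPKM) still overlapped, while Asns (8.97 ± 0.386), Atf5 (6.08 ± 0.154) and Trib3 (5.59 ± 0.0421 FPKM) stood apart from them.

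**Figure D3:**
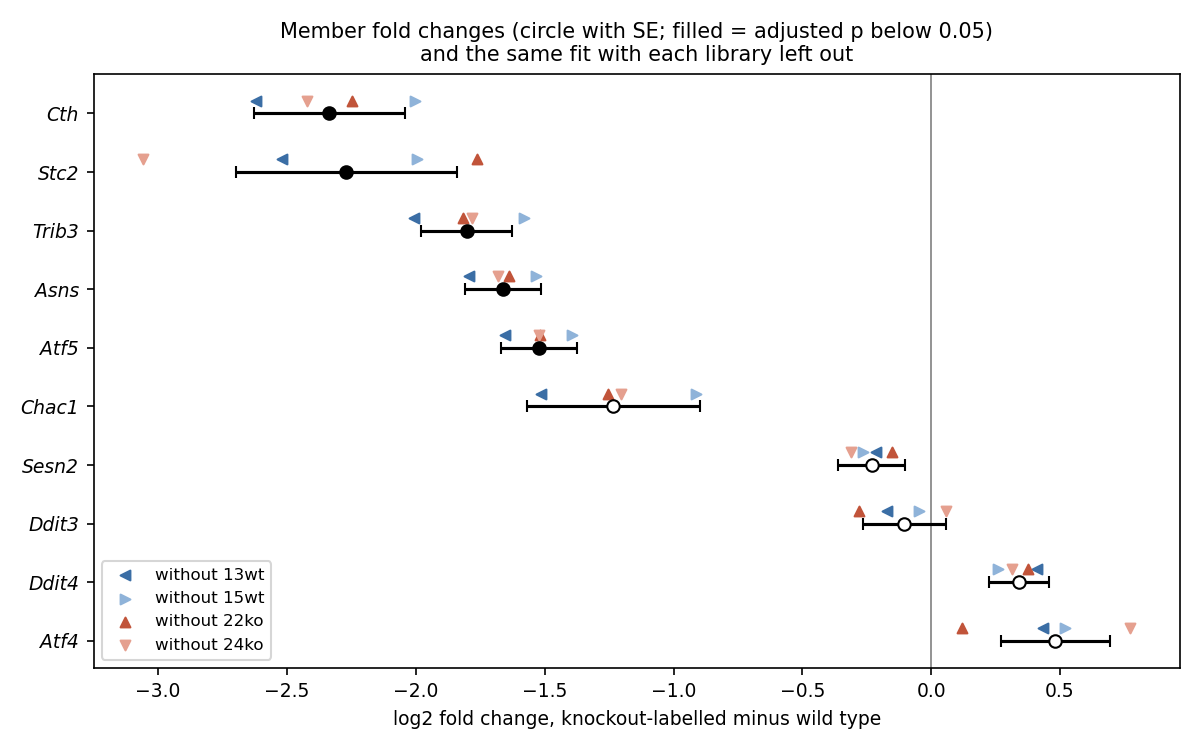
Log2FC of each gene (horizontal axis; circles with SE bars, filled where the adjusted p is below 0.05), with triangles for the same fit after leaving out each library. Asns stays between -1.79 and -1.53, Trib3 between -2.01 and -1.58, and Atf4 moves from 0.12 to 0.77.

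The members that fell also differed within wild type. The 15wt library was above 13wt by 0.26 for Atf5, 0.26 for Asns, 0.43 for Trib3, 0.61 for Cth and 0.52 for Stc2 on the log2 CPM scale, and by 0.59 for Chac1. In all, 8 of 10 members were higher in 15wt, where 49.3% of all tested genes were. Between the knockout-labelled libraries (24ko minus 22ko) the differences were -0.01 for Atf5, 0.02 for Asns, -0.05 for Trib3, 0.15 for Cth and 1.19 for Stc2, and 5 of 10 members were higher in 24ko, where 51% of all tested genes were. With 1 library on each side these differences have no test. As 15wt was the higher wild-type library for these 5 genes, each fall had to be smaller without 15wt than without 13wt. The log2FC values were -1.40 against -1.65 for Atf5, -1.53 against -1.79 for Asns and -1.58 against -2.01 for Trib3. For Cth they were -2.004 against -2.62 and for Stc2 -1.99 against -2.52.

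The genes most like Asns over the 4 libraries, among those with a mean of 5 or more CPM, were named by the root mean square difference of their centred log2 CPM. They were Hivep3 (0.0194), Atf5 (0.0721), Slc6a9, a glycine transporter (0.0742), Shmt1, a serine hydroxymethyltransferase (0.0834), and Trim16 (0.0899). Nearest to Trib3 were Hivep3 (0.0822), Asns (0.0905), Shmt1 (0.0948), Slc6a9 (0.103) and Nefh (0.127). Hivep3, a zinc finger gene, stood at 32.1, 39.3, 11.3 and 11.2 CPM in 13wt and 15wt and 22ko and 24ko. With 4 libraries in 2 groups, this measure mostly reflects the size of the group difference.

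**Figure D4:**
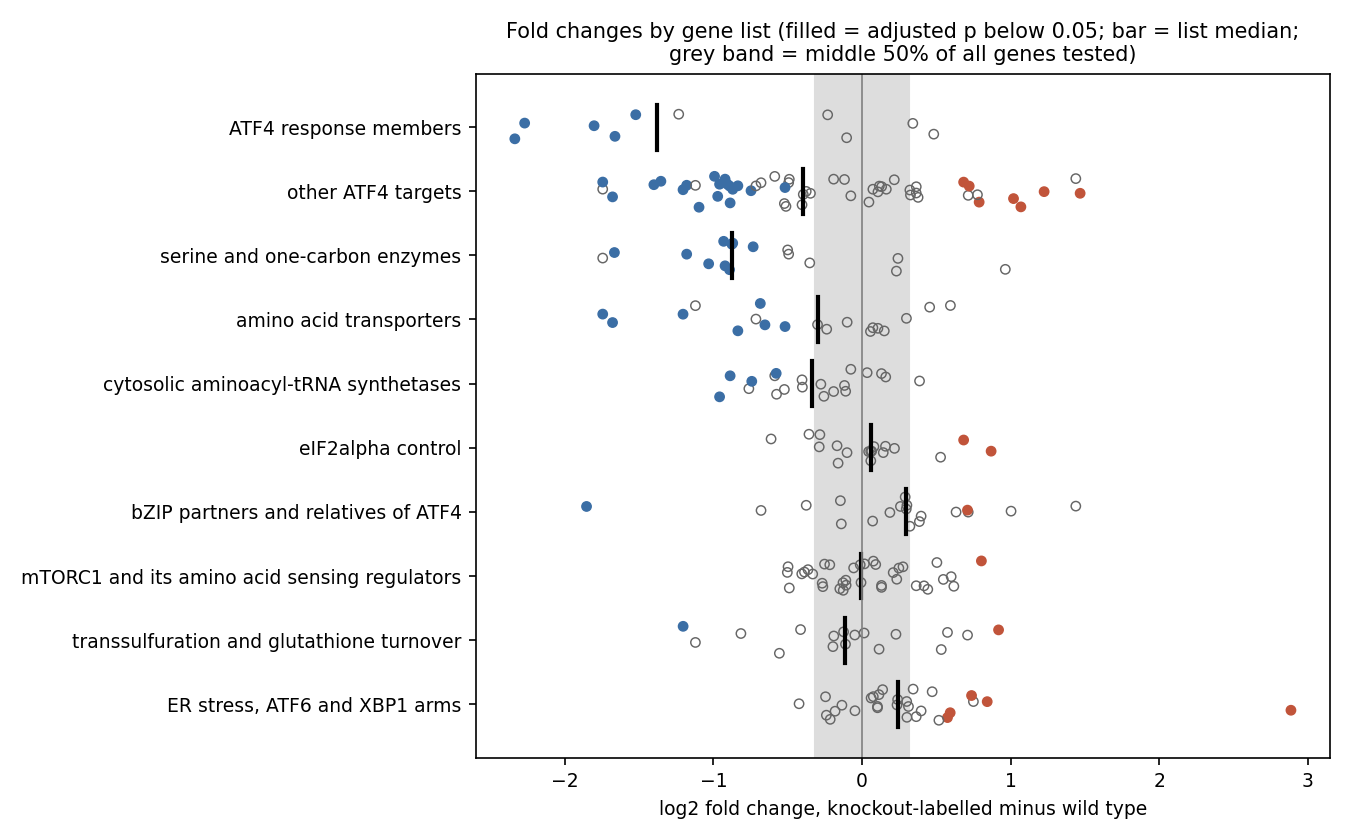
Log2FC (horizontal axis) of each tested gene in 10 lists, filled where the adjusted p is below 0.05 (blue lower, red higher), with the list median as a bar and the middle 50% of all tested genes (-0.31 to 0.32) as a grey band. The medians of the members (-1.38), the serine and one-carbon enzymes (-0.87), the other ATF4 targets (-0.40) and the synthetases (-0.34) lie below the band.

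Other ATF4 targets moved in both directions. The lists described from here on share genes with each other (Phgdh and Shmt2 are in more than 1), and together they held 200 tested genes besides the members, of which 29 fell and 16 rose. Of 56 tested genes of this list, 18 fell (32.1%, where 4.59% of all tested genes fell) and 7 rose (12.5%, where 5.53% did), with a median log2FC of -0.40. Slc6a9 fell by 1.75 on the log2 scale, to 5.95 CPM (adjusted p = 0.0113), Phgdh, the first enzyme of serine synthesis, from 238 to 105 CPM (-1.18, adjusted p = 0.0126), and Aldh18a1, an enzyme of proline synthesis, from 182 to 91.4 CPM (-0.99, adjusted p = 0.0141). Osgin1, an oxidative stress gene, rose from 6.11 to 16.9 CPM (1.47, adjusted p = 0.015). Without 13wt the list gave 11 lower and 1 higher, and without 15wt it gave 1 lower, Slc6a9, and 1 higher. Phgdh, Aldh18a1 and Osgin1 did not pass without 15wt (adjusted p = 0.0538, 0.1 and 0.062). Windows around the start were found for 44 genes of this list, and 15 held the TGATGNAA letters. Of these 15, 3 fell (Nupr1, Slc1a4 and Pycr1), 11 did not pass the threshold and 1 was below the filter. In the whole list, with or without the letters, 18 of 56 tested genes fell (32.1%).

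Serine and one-carbon enzymes, which supply one-carbon units for nucleotide synthesis, mostly fell: 9 of 16 (56.2%, where 4.59% of all tested genes fell) were lower and none higher (median log2FC -0.87). Shmt1 fell from 24.0 to 7.56 CPM (log2FC -1.67, adjusted p = 0.0135), Shmt2 from 215 to 114 CPM (-0.92, adjusted p = 0.0167) and Mthfd1l from 81.8 to 42.9 CPM (-0.93, adjusted p = 0.0199). Without 13wt, 5 of these enzymes fell, and without 15wt only Shmt1 did (adjusted p = 0.0284), with Shmt2 at 0.13 and Mthfd1l at 0.123.

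Among 19 amino acid transporters 7 fell (36.8%, against 4.59% of all tested genes) and none rose (median log2FC -0.30). Slc7a5, which imports leucine and other large neutral amino acids, fell by 1.20 on the log2 scale (adjusted p = 0.0168), while its partner chain Slc3a2 had a log2FC of 0.07 (adjusted p = 0.797). Slc7a6 fell by 0.65 and Slc36a4 by 0.68 (adjusted p = 0.029 and 0.0367). Of 20 cytosolic aminoacyl-tRNA synthetases, which load tRNAs with amino acids, 4 fell (20%, against the same 4.59%) and none rose (median -0.34): Wars, Lars, Eprs and Farsb, with log2FC values of -0.96, -0.74, -0.89 and -0.58 (adjusted p = 0.0297, 0.033, 0.0429 and 0.044). Without 15wt, 1 transporter, Slc6a9, and no synthetase passed, with Slc7a5 at 0.0785. Without 13wt, 3 transporters fell and 1 rose, Slc7a6, Slc36a4, Lars and Farsb did not pass (adjusted p = 0.174, 0.124, 0.1 and 0.2), and 2 synthetases fell. Wars did not pass without 22ko (0.0552), nor Eprs without 24ko (0.0508).

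Upstream of ATF4, 2 of 18 tested genes of eIF2 control rose (11.1%, where 5.53% of all tested genes rose) and none was called lower (median log2FC 0.06). Some were called lower with either knockout-labelled library left out, where more genes were called over all genes too. Eif2ak3, the kinase PERK that senses endoplasmic reticulum stress, stood at 74.1 and 71.6 CPM in wild type and at 161 and 106 CPM in 22ko and 24ko (log2FC 0.87, adjusted p = 0.0481). Ppp1r15a (GADD34), the phosphatase subunit that reverses eIF2 phosphorylation and is itself an ATF4 target, stood at 34.6 and 33.8 CPM in wild type and at 54.1 and 55.9 CPM in 22ko and 24ko (0.68, adjusted p = 0.0265). The amino acid sensor Eif2ak4 (GCN2) had a log2FC of -0.16 (adjusted p = 0.401). Eif2ak3 and Ppp1r15a did not pass without 13wt (adjusted p = 0.148 and 0.166) or 15wt (0.215 and 0.235), nor in limma on log2(FPKM + 1) (0.075 and 0.0558) or log2(FPKM + 0.1) (0.07 and 0.0522).

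In the other arms of the endoplasmic reticulum stress response, 5 of 29 genes rose (17.2%, where 5.53% of all tested genes rose) and none was called lower (median log2FC 0.24). The fit without 24ko called more of these genes in both directions, as it did over all genes. Hspa5 (BiP) rose by 0.57 and Hsp90b1 (GRP94) by 0.59 on the log2 scale (adjusted p = 0.0289 and 0.025), the sensor Ern1 (IRE1) by 0.84 (0.0398), and Derl3, of the degradation pathway, from 0.471 to 3.58 CPM (0.0267). Without 15wt none of the list passed (0.103 to 0.295 for these genes), and without 13wt only Derl3 did (0.03; 0.138 to 0.183 for the other named genes).

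Among 19 tested basic leucine zipper partners and relatives of ATF4, 1 rose and 1 fell (5.26% each way, close to the 5.53% and 4.59% of all tested genes). The median log2FC of this list was 0.30, with 14 genes above 0 and 5 below. Batf, a partner of JUN and IRF4 in T cells, rose from 27.6 to 45.1 CPM (adjusted p = 0.0332) and Fosl1 fell from 6.62 to 1.82 CPM (adjusted p = 0.0253). Both calls were lost without 13wt (0.134 and 0.0522) or 15wt (0.289 and 0.102). The C/EBP partners Cebpb and Cebpg had log2FC values of -0.68 and -0.38 (adjusted p = 0.0711 and 0.091), and Atf3 of 0.71 (adjusted p = 0.112).

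Of 36 tested genes of mTORC1 and its regulators, 1 rose (2.78%, below the 5.53% of all tested genes) and none was called lower (median log2FC -0.01). More genes of this list were called with either knockout-labelled library left out, but more were called over all genes too. The gene that rose was Flcn, folliculin, from 62.7 to 109 CPM (adjusted p = 0.0363; 0.135 without 13wt, 0.237 without 15wt and 0.0581 in limma on log2(FPKM + 1)). Around Cth and Chac1, 1 of 17 genes of transsulfuration and glutathione turnover rose and 1 fell (5.88% each way, close to the 5.53% and 4.59% of all tested genes). Their median log2FC was -0.11. Gclm, the regulatory subunit of the enzyme that starts glutathione synthesis, fell from 35.2 to 15.3 CPM (adjusted p = 0.0267; 0.0954 without 13wt), and Sqor, which oxidises sulfide, rose from 13.3 to 25.2 CPM (adjusted p = 0.0311; 0.0937 without 13wt and 0.233 without 15wt). Of 8 tested relatives of the members in the same gene families, 1 rose (12.5%, where 5.53% of all tested genes rose) and none was called lower. The median log2FC of these relatives was 0.49. The gene that rose was Batf, already counted among the basic leucine zipper relatives, so it is not a separate result. Trib2 and Sesn3, with log2FC values of 0.17 and 0.62, did not pass (adjusted p = 0.421 and 0.22).

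Library totals ran from 14599957 to 16030869 counts, mitochondrially encoded genes held 4.96% to 5.06% of them, and 3 counts equalled 0.184 to 0.201 CPM. T cell markers were abundant in every library (summed over 10 genes, 4347 to 4584 CPM in wild type and 4578 to 4670 CPM in the knockout-labelled pair). Of 8 Treg markers, 5 fell (62.5%, where 4.59% of all tested genes fell) and none rose. Foxp3 stood at 242 and 247 CPM in wild type against 31.9 and 75.8 CPM, while Ctla4 (684 and 676 against 968 and 835 CPM) and Ikzf2 (167 and 165 against 221 and 201 CPM) were higher without passing the test. Markers of other cells moved with the group at lower levels. For 6 CD8 T cell markers the summed CPM was 198 and 269 against 473 and 313. Of these 6, 3 rose (50%, where 5.53% of all tested genes rose), and these 3, Klrd1, Klrc1 and Klrk1, are also natural killer receptors. For 7 natural killer markers the sum was 9.68 and 9.32 against 37.8 and 33.1 (2 of 4 tested rose, 50%). Ncr1 was at 0 in both wild-type libraries. For 6 gamma-delta markers the sum was 19.3 and 17.0 against 43.8 and 60.6 (3 of 5 tested rose, 60%). For 8 B cell markers it was 226 and 229 against 294 and 342 (1 rose, 12.5%). Most of the B cell sum was Ighm, at 207 and 212 against 247 and 308 CPM. Cd8a itself was at 81.0 and 120 against 113 and 41.2 CPM and Cd8b1 at 43.8 and 62.9 against 69.1 and 37.3 CPM, so 24ko was below both wild-type libraries. The part of these markers in the results for the ATF4 genes was not tested. Myeloid markers summed to 32.8 to 39.5 CPM over all 4 libraries, and 1 of 8 tested fell (12.5%).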

How the data were processed

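RNA of 4 libraries was analysed. The labels' protocols name TRIzol extraction of total RNA and the Illumina HiSeq platform, and the submitters' processing notes name Bowtie2, RSEM and GRCm38.p6 (mm10). For versions, counting options and strand, nothing is given in the sources used here. The authors deposited whole-number counts per gene and FPKM values in 1 table. Counts as deposited were tested with edgeR 4.0.16 (R 4.3.3): filterByExpr (minimum count 10, minimum total 15), TMM scaling, glmQLFit and glmQLFTest, two-sided, with Benjamini-Hochberg adjustment over all 13279 genes tested and a threshold of 0.05. Adjusted p-values in the text are from this test. The standard error is the log2 fold change over the square root of F, and 95% intervals are not adjusted for the number of genes. CPM used the scaled library sizes and log2 CPM a prior count of 2. An exact test of 1 gene in 2 against 2 libraries cannot go below p = 0.333, and the test therefore borrows its spread from all genes. Within each group the libraries differed beyond counting noise, with chi-square over degrees of freedom at 9.33 (wild type) and 28.5 (knockout-labelled).

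The members and all lists were chosen with earlier results of these data known, so no list was tested as a set. Of 283 listed genes 281 matched a symbol of the table. Named genes are the 10 members, up to 4 genes of each list with the smallest p past the threshold (or the 2 most abundant where fewer than 2 passed), and the 5 nearest to Asns and to Trib3; other genes named were chosen after their values were seen. Promoter windows are from RefSeq (GRCm38.p6) and exon overlaps from GENCODE M21. The scripts were tested on simulated data. Alternatives were RLE size factors, library totals, no filter, a filter of 5 CPM in 2 libraries, DESeq2 1.42.0, glmTreat against a minimum fold of 1.5, limma 3.58.1 on FPKM after log2 with a pseudocount of 1 or 0.1, and leaving out each library, where a lone library is assumed to vary as the other group does. Matplotlib 3.10.9 drew the figures.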

Additional observations from a re-analysis of the deposited data

How the results depend on the processing

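Asns, Trib3, Atf5 and Cth kept their direction and an adjusted p below 0.05 under all 12 alternatives, with adjusted p up to 0.0205, 0.0252, 0.0261 and 0.0348. Stc2 did not pass against a minimum fold of 1.5 (adjusted p = 0.0993) or without 15wt, so 4 members were lower there and 5 or 6 under the other alternatives. With each library left out in turn, 4 to 5 members were lower and 0 to 1 higher, and the log2FC of Ddit3 was -0.28 to 0.058, positive without 24ko. Over all genes (734 higher, 610 lower), the counts were 1241 and 1084 with no filter, 85 and 35 against a minimum fold of 1.5, and 120 to 2093 higher and 69 to 1995 lower with a library left out. Limma gave 445 higher on log2(FPKM + 1) and 457 on log2(FPKM + 0.1), with 446 and 434 lower, and library totals gave 674 higher and 771 lower. Of the 200 other pathway genes (16 higher, 29 lower), 0 were higher and 2 lower against a minimum fold of 1.5, 8 were higher with each limma setting, and 1 to 36 were higher and 3 to 44 lower with a library left out. The cause was not tested. Chac1 was below the filter of 5 CPM, so that alternative gave it no value. No paired analysis was possible because the groups share no replicate numbers. With 31 to 41 counts in the knockout-labelled libraries for Chac1 and Cth, and 16 in 1 library for Stc2, depth limits the precision of these genes.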

Other observations

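The difference between the wild-type libraries extended to some lists of the wider programme, which share genes. The 15wt library was above 13wt for 43 of 56 other ATF4 targets, 18 of 20 cytosolic aminoacyl-tRNA synthetases and 12 of 16 serine and one-carbon enzymes, where 49.3% of all tested genes were. It was above for 11 of 29 genes of the other arms of the endoplasmic reticulum stress response. Over the 200 tested genes of all the pathway lists besides the members, it was above for 115. Among single genes, Eprs stood at 284 and 392 CPM in 13wt and 15wt, and Slc7a3, a cationic amino acid transporter, at 8.09 and 15.6 CPM. These are 1 library against 1, with no test.

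The factor gene Nfe2l1, chosen after its values were seen, stood at 47.5 and 46.2 CPM in wild type, at 220 CPM in 22ko and at 33.8 CPM in 24ko (adjusted p = 0.224). Klhl24 and Ndrg1, also listed as ATF4 targets, rose from 120 to 244 CPM and from 63.2 to 133 CPM (adjusted p = 0.0471 and 0.0165). The TGATGNAA letters stood within the start windows of 16 of 472 genes called lower (3.39%) and of 11 of 528 called higher (2.08%), against 2.76% of tested genes with a window.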
